A study of Homo sapiens with 33 samples.

Results

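The TSC22 domain family of human leucine zipper genes was followed across 33 RNA-seq libraries of acute lymphoblastic leukaemia (ALL) cell lines. Its 4 genes were taken by symbol: TSC22D1 (ENSG00000102804.15_1, chromosome 13), TSC22D2 (ENSG00000196428.12_1, chromosome 3), TSC22D3 (ENSG00000157514.17_1, chromosome X) and TSC22D4 (ENSG00000166925.9_1, chromosome 7). They are 4 of the 62446 gene rows in the deposited tables. All 4 passed the filter on low counts in every comparison. The series asks how glucocorticoid and Wnt signalling bear on each other in ALL, and each of its 11 groups has 3 libraries. Nalm6 is a B-cell precursor ALL line, and its parental cells were untreated or given CHIR-99021 (0.5 µM), prednisolone (5 µM) or, in a further group, dexamethasone (100 nM). A second untreated Nalm6 group is titled as the control for dexamethasone, and it and the Nalm6 dexamethasone group are called the dexamethasone set here. Which untreated group belongs with Nalm6 prednisolone is not given in the sources used here; the one titled without a drug, which is also the control for CHIR-99021, was taken. A Nalm6 derivative labelled TLE1 knockout, with the TLE1 co-repressor targeted, was untreated or given 5 µM prednisolone or 100 nM dexamethasone. CEM, a T-cell ALL line, was untreated or given 2 µM CHIR-99021 or 10 µM prednisolone. All treatments lasted 24 h. Per the labels, Nalm6 and knockout cells grew in charcoal-stripped serum, a treatment that lowers steroid content. Whether the knockout is 1 clone or a pool is not given in the sources used here. Groups follow the sample titles, because the treatment text in the labels gives prednisolone and CHIR-99021 the other way round for the parental and knockout cells.

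TSC22 proteins share a short domain ahead of a leucine zipper, through which they pair with themselves and with each other. TSC22D3 encodes GILZ, the glucocorticoid-induced leucine zipper, a direct target of the glucocorticoid receptor in lymphoid cells that binds NF-kB, AP-1 and Ras/Raf proteins. TSC22D1 was named as a transcript stimulated by TGF-beta. The long proteins of TSC22D1, TSC22D2 and TSC22D4 bind the pseudokinase NRBP1 and have been tied to WNK kinases, which govern ion transport and cell volume. Glucocorticoids such as prednisolone and dexamethasone bind the receptor NR3C1, which then acts on transcription in the nucleus. CHIR-99021 inhibits the kinase GSK3 and so stabilises beta-catenin, the effector of Wnt signalling.

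The TSC22D3 gene has many starts, and the counts merge them. GENCODE v29 lists 17 TSC22D3 transcripts with 17 different starts, so which start gave the reads cannot be told from gene counts. RefSeq (GRCh38.p14) gave promoter windows for 3 of the 4 genes: 5 for TSC22D1, 4 for TSC22D3 and 1 for TSC22D4. In each window the 250 bases before the start were searched on both strands for the palindromic glucocorticoid response element, a TCF/LEF site (ATCAAAG), a FOXO site (TGTTTAC), a core of the cAMP response element (TGACG) and a TATA box (TATAAA). These motifs do not overlap each other in the windows described here. The same search over 34943 windows of that length found them in 0.326%, 2.27%, 2.98%, 21.2% and 10.8%. No window of the family holds the letters of the glucocorticoid response element or of the TCF/LEF site. TSC22D1 windows hold TATA matches at 28 to 23, 223 to 218 and 113 to 108 bases before their starts. A TSC22D3 window holds a cAMP core at 123 to 119. Another TSC22D3 window, on the minus strand, holds a FOXO match 147 to 141 bases before the start. That window also has cAMP cores at 60 to 56 and 50 to 46, and a TATA match at 29 to 24. Its stretch outside annotated exons is shown with the FOXO match in capitals, because TSC22D3 carries the main finding. The TSC22D4 stretch is shown beside it as the promoter of the most abundant untreated member, and no motif searched for was found in it. A match is only a match of letters.
TSC22D3, chrX:107717136-107717312, minus strand: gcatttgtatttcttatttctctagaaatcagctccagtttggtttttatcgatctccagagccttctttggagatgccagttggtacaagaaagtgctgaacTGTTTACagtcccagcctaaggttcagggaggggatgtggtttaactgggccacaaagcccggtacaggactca
TSC22D4, chr7:100479280-100479464, minus strand: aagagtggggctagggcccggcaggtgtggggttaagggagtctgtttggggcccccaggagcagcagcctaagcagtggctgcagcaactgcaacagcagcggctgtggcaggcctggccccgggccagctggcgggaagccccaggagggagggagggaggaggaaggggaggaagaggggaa
The base composition of the 2 stretches differs, with 45.8% G or C in the TSC22D3 stretch and 68.1% in the TSC22D4 stretch.

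Library depth, as the sum over genes, was 25292579 to 61930057 counts. TSC22D3 had the fewest reads of the family, 52 counts in its lowest library, and no member was near 0 in any library. B-lineage markers summed to 1838 to 2512 CPM (counts scaled to the library's gene total) in Nalm6 and 1944 to 2376 CPM in the knockout, but to 59.1 to 96.3 CPM in CEM. T-lineage markers summed to 1861 to 2038 CPM in CEM and at most 49.4 CPM in the other lines, so both labels of lineage were met. TLE1 itself stood at 24.5 ± 0.783 CPM (SD, n = 3) in the untreated knockout against 32.0 ± 1.89 and 27.0 ± 0.968 CPM in the 2 untreated Nalm6 groups, and at 62.5 ± 7.38 and 57.3 ± 1.84 CPM in the knockout with prednisolone and dexamethasone against 113 ± 3.03 and 131 ± 2.71 CPM in parental cells. The transcript was thus present in the libraries labelled knockout. The 2 untreated Nalm6 groups differed: 50.2% of 17478 genes were called between them (edgeR quasi-likelihood test, Benjamini-Hochberg adjusted p under 0.05, the rule for every call here), and all 4 members were among them. In the dexamethasone set TSC22D3 was lower (log2 difference -0.74, edgeR adjusted p = 4.38e-06) and TSC22D2 was lower (-0.33, adjusted p = 0.00884), while TSC22D4 (0.47) and TSC22D1 (0.15) were higher. The TSC22D2 difference was -0.21 without replicate 1 of the dexamethasone set's untreated group, and TSC22D1 lost its call without replicate 1 of the other untreated group (0.13, adjusted p = 0.0526). Values of members that rest on an untreated Nalm6 group are therefore also given with the other group, except for CHIR-99021. For TSC22D1, TSC22D3 and TSC22D4 in untreated CEM, levels are given in place of a second log2 difference.

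In untreated cells TSC22D4 was the most abundant member, and TSC22D3 was the scarcest in CEM and the knockout but not in Nalm6. Levels between genes are compared here as CPM per kilobase of exon. In untreated Nalm6 they were 28.8 ± 1.57 for TSC22D4, 4.70 ± 0.112 for TSC22D1, 4.54 ± 0.405 for TSC22D3 and 2.79 ± 0.214 for TSC22D2 (SD, n = 3). TSC22D4 made up 70.6% of the family total in that group, and TSC22D3 11.1%. Prednisolone turned the order around: TSC22D3 took 67.6% ± 1.04 of the family and TSC22D4 23.6% ± 0.976. A like change of shares was seen in the dexamethasone set, where the TSC22D3 share went from 5.41% ± 0.434 to 63.3% ± 0.168. The family total rose with both drugs, from 40.9 to 108 with prednisolone and from 48.1 to 157 with dexamethasone. TSC22D4 itself rose from 38.4 to 47.9 with dexamethasone, so only its share fell there. In the knockout the TSC22D3 share went from 3.76% ± 0.495 to 47.3% ± 2.83 under prednisolone and was 44.2% ± 1.73 under dexamethasone. In CEM the TSC22D3 share went from 1.57% ± 0.0722 to 49.4% ± 0.641 under prednisolone. With the longest transcript as the length in place of all exons, TSC22D3 (9.54) stood above TSC22D1 (8.38) in untreated Nalm6, so that pair has no fixed order. In the untreated knockout TSC22D3 (1.55) was below TSC22D2 (2.80) on exon length. With the longest transcript it was above TSC22D2 there (3.26 against 2.93).

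**Figure D1:**
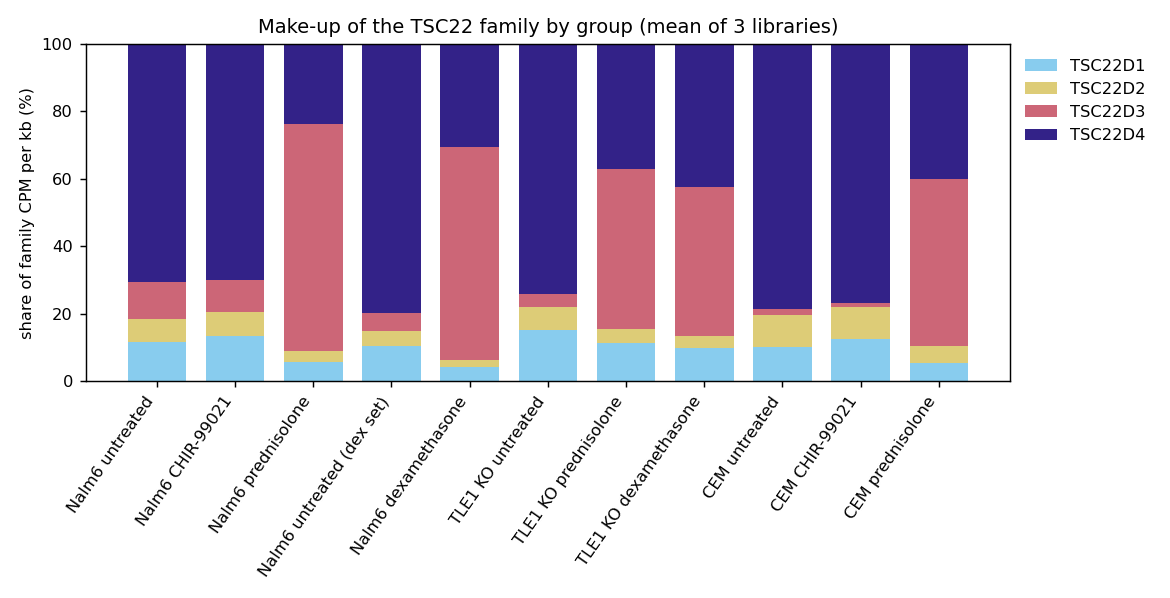
Share of each member in the family's CPM per kilobase (y axis, percent) for the 11 groups, as means of 3 libraries. TSC22D4 fills 70.6% of the untreated Nalm6 bar, and TSC22D3 fills 67.6% of the prednisolone bar.

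TSC22D3 spanned a 325-fold range of group means, from 1.46 CPM in CEM under CHIR-99021 to 474 CPM in Nalm6 under dexamethasone. The range was 2.71-fold for TSC22D1, 2.49-fold for TSC22D4 and 1.56-fold for TSC22D2. From low to high, TSC22D3 ran through CEM with CHIR-99021, untreated CEM, untreated knockout, untreated Nalm6 of the dexamethasone set, Nalm6 with CHIR-99021 and untreated Nalm6. The 5 glucocorticoid groups followed: CEM with prednisolone, knockout with prednisolone, knockout with dexamethasone, Nalm6 with prednisolone and Nalm6 with dexamethasone. Only the 2 treated knockout groups overlapped as neighbours in that order, at 157 ± 5.29 and 157 ± 7.67 CPM. TSC22D2 gave no such order, since all its neighbouring groups overlapped except Nalm6 with prednisolone, which lay above the rest in CPM. With library sizes scaled by TMM, the TSC22D2 means of Nalm6 with prednisolone and with dexamethasone were 36.9 and 36.1.

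**Figure D2:**
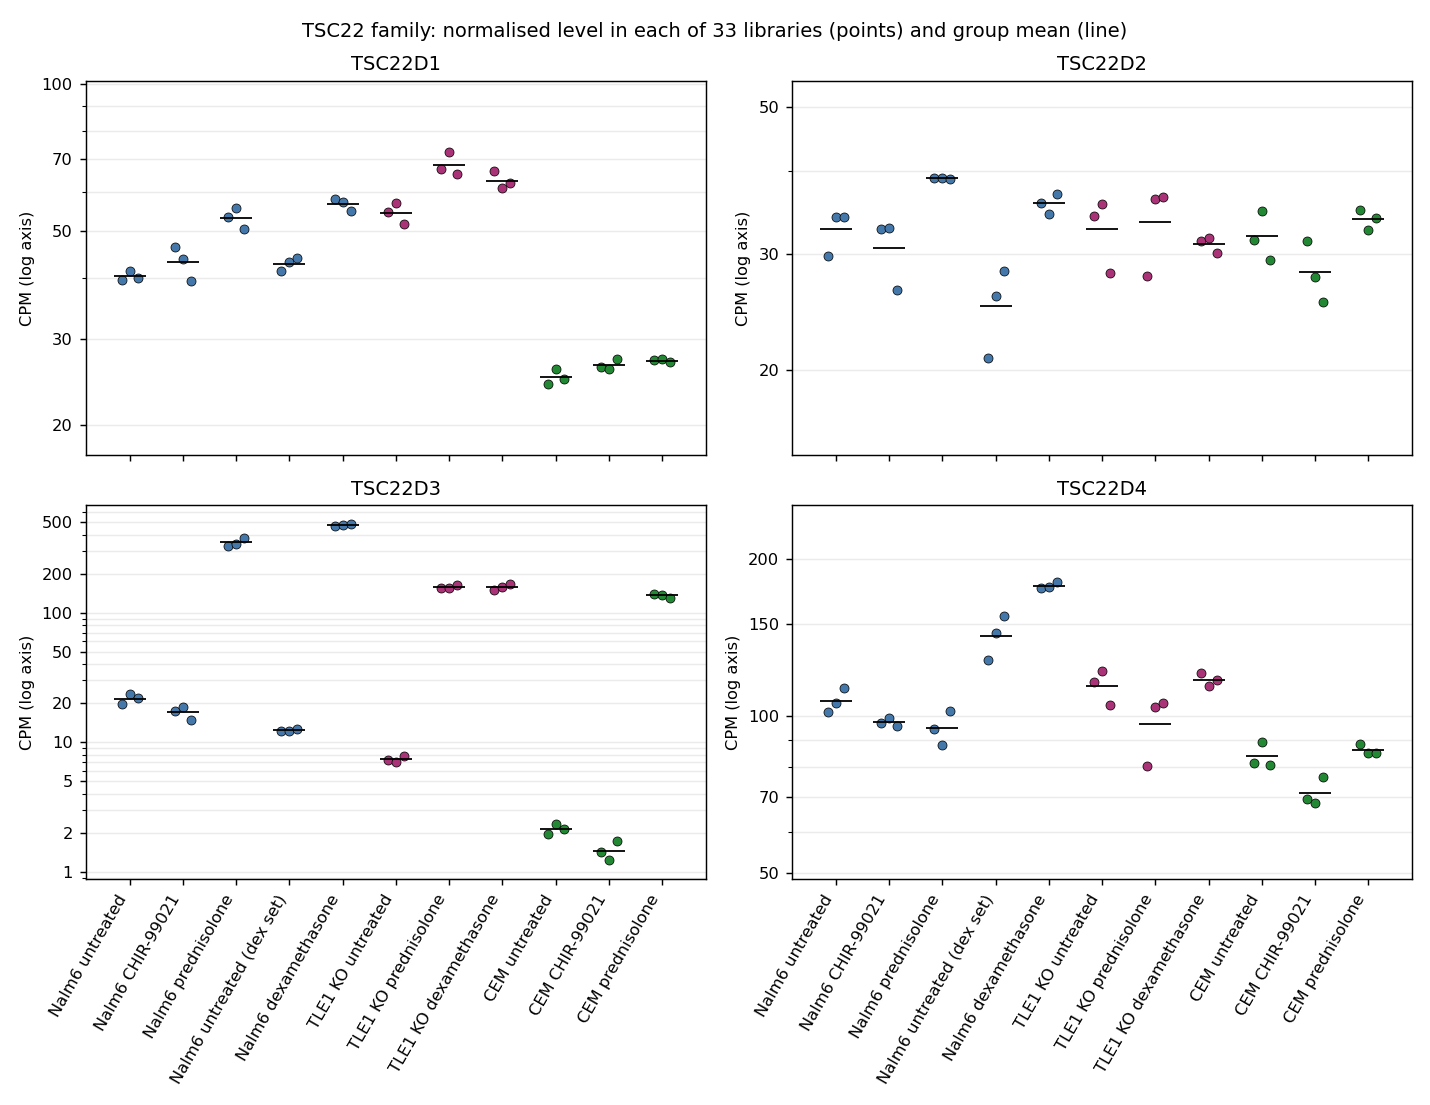
CPM on a log axis for each library (points) and group mean (lines), with Nalm6 in blue, the knockout in purple and CEM in green. For TSC22D3 the 15 glucocorticoid-treated libraries lie between 131 and 481 CPM and the 18 others between 1.22 and 23.4 CPM.

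Glucocorticoids raised TSC22D3 in every line tested. In Nalm6 its level was 19.6, 23.4 and 21.9 CPM untreated and 329, 341 and 376 CPM with 5 µM prednisolone. All treated libraries lay far above all untreated ones. The log2 fold change was 3.99 ± 0.06 (SE; edgeR adjusted p = 8.15e-18), a 15.9-fold rise that ranked TSC22D3 147th among the rises of 18658 genes tested. In that comparison 54.8% of genes were called, and all 4 members were. In bulk libraries a change in the number of expressing cells and a change in RNA per cell cannot be told apart. Against the other untreated group the log2 fold change of TSC22D3 was 4.71.

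Dexamethasone at 100 nM took TSC22D3 in Nalm6 from 12.2, 12.2 and 12.5 CPM to 468, 474 and 481 CPM. Replicates were tight on both sides and the groups did not overlap. On the log2 scale the rise was 5.23 ± 0.05 (edgeR adjusted p = 8.51e-18), and 4.50 against the other untreated group. All 4 members were called, each with a rise, among the 60.5% of 17217 genes called. The doses of dexamethasone and prednisolone differ, so their responses were not compared.

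In the knockout TSC22D3 rose from 7.26, 7.03 and 7.87 CPM to 154, 154 and 163 CPM with prednisolone. The treated and untreated libraries did not overlap. The rise was 4.37 ± 0.07 on the log2 scale (edgeR adjusted p = 6.25e-11), in a comparison where 41.7% of 16555 genes and 3 of the 4 members were called. With dexamethasone the knockout reached 150, 157 and 165 CPM. No untreated knockout group is titled for dexamethasone. Against the one untreated group there is, TSC22D3 was higher by 4.43 on the log2 scale (adjusted p = 6.48e-11, 52.3% of genes called), and by 5.17 after the difference between the 2 untreated Nalm6 groups was subtracted (40.0% of genes called), which assumes that the sets differ alike in both lines. Each of these 2 comparisons called 2 of the 4 members.

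CEM started lowest and had the largest TSC22D3 fold change of the glucocorticoid comparisons run. Untreated libraries held 1.97, 2.33 and 2.13 CPM, and libraries with 10 µM prednisolone held 140, 137 and 131 CPM. The treated levels were below those of both Nalm6 glucocorticoid groups. The log2 fold change was 5.96 ± 0.06 (edgeR adjusted p = 3.42e-21), a 62.0-fold rise that ranked 18th among the rises of 17381 genes. TSC22D3 was the one member of the 4 called there, where 45.1% of genes were called. The rise in CEM exceeded that in Nalm6 by 1.98 ± 0.12 on the log2 scale (edgeR interaction test, adjusted p = 6.04e-12), a comparison in which 26.9% of genes and 3 of the 4 members were called. With the other untreated Nalm6 group the excess of TSC22D3 was 1.25 (adjusted p = 1.08e-08). The prednisolone doses of the lines differ, so line and dose cannot be told apart.

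**Figure D3:**
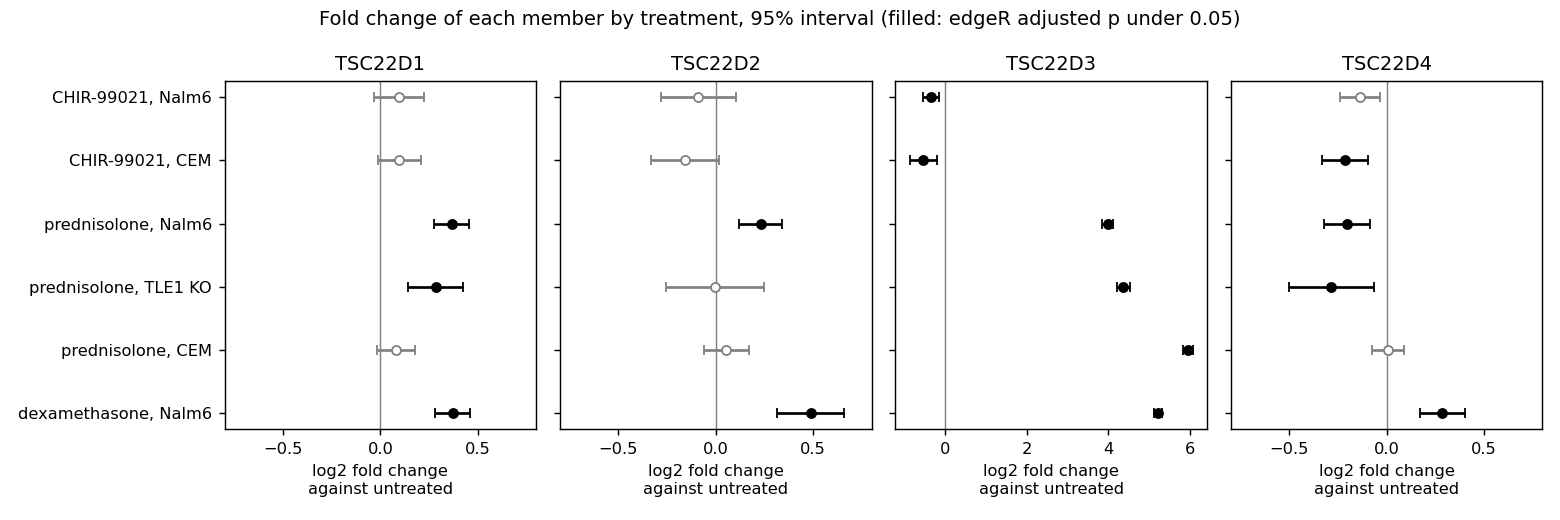
Log2 fold change of each member against untreated cells of its line, with the untreated groups named in the text (x axis; the TSC22D3 panel has a wider axis), with 95% intervals and filled points for called changes. TSC22D3 lies between 3.99 and 5.96 under glucocorticoids and at -0.35 and -0.55 under CHIR-99021.

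TSC22D3 was read beside 8 other genes known as glucocorticoid receptor targets, among them FKBP5, a receptor co-chaperone, PER1, a clock gene, SGK1, a kinase, and TXNIP, an inhibitor of thioredoxin. In Nalm6, 7 of the 8 rose with prednisolone and 1 fell, with a median log2 fold change of 1.54 against 0.03 over all genes tested. Of all genes tested 28.7% were called higher and 26.1% lower there. Dexamethasone gave 7 rises and 1 fall, with a median of 2.30 against 0.02 and 30.2% of all genes called in each direction. DUSP1, a MAP kinase phosphatase, was the gene that fell under both (-0.25 and -0.45). Against the other untreated group, though, all 8 were called higher with dexamethasone (72.8% of all genes called). In the knockout 7 of 8 rose with prednisolone (median 1.00 against -0.00), and in CEM all 7 tested rose (median 1.68 against 0.02). Of all genes 19.8% were called higher in the knockout and 22.3% in CEM. By the interaction test the prednisolone response of 3 of the 8 was larger in CEM than in Nalm6, as that of TSC22D3 was: DDIT4 (1.05), FKBP5 (0.79) and DUSP1 (0.56). It was smaller for 4, among them SGK1 (-1.64) and TXNIP (-1.35). Over all genes the difference was called higher for 14.7% and lower for 12.2%.

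**Figure D4:**
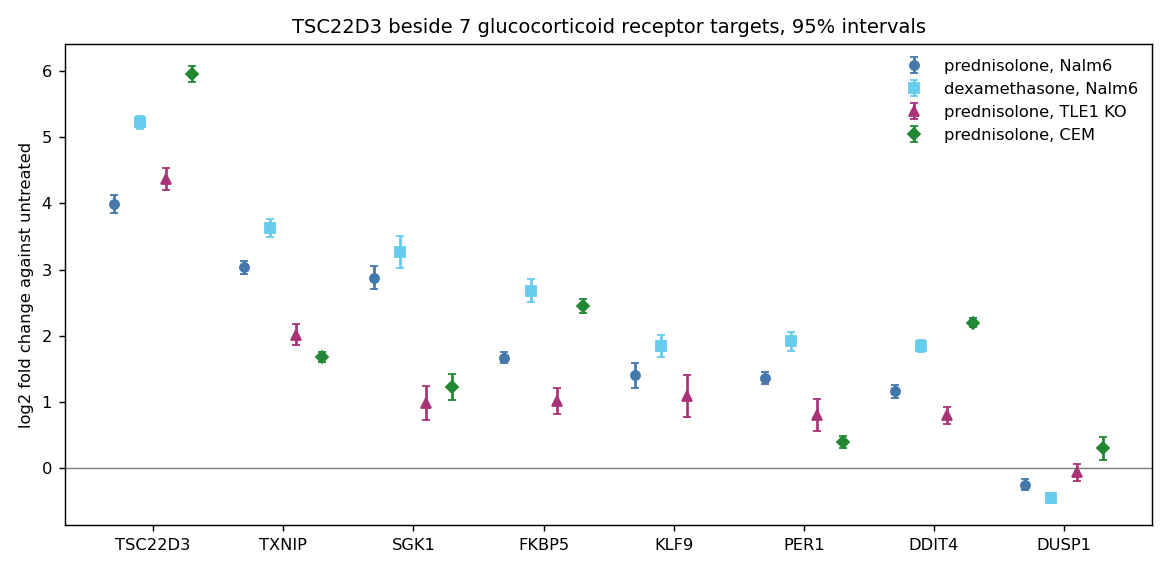
Log2 fold change against untreated cells (y axis) with 95% intervals for TSC22D3 and 7 of the 8 receptor targets in 4 comparisons. ZBTB16, a transcription factor gene at or under 0.325 CPM in every untreated library, is left out because its fitted fold change depends on a prior count, and KLF9 was not tested in CEM.

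The genes of 5 transcription factors that act on TSC22D3 were read next. NR3C1, the glucocorticoid receptor, went from 241 ± 1.58 to 558 ± 13.8 CPM in Nalm6 and from 203 ± 3.06 to 606 ± 1.67 CPM in CEM with prednisolone (SD, n = 3). Its log2 fold changes were 1.18 and 1.54 (edgeR adjusted p = 2.69e-14 and 1.41e-17). FOXO1, a transcription factor restrained by PI3K signalling, rose by 0.64 in Nalm6 and stood at 0.176 ± 0.0665 CPM in untreated CEM. FOXO4 rose by 0.38 in Nalm6 and 0.76 in CEM, FOXO3 was not called in Nalm6 (-0.02), and NR3C2, the mineralocorticoid receptor, fell by 0.39 in Nalm6 and rose by 1.02 in CEM. Over the list, 3 of 5 rose and 1 fell in Nalm6 (54.8% of all genes called), and in CEM 4 of 4 tested rose (45.1% called). Against the other untreated Nalm6 group NR3C1 (1.24), FOXO1 (0.72) and FOXO3 (0.22) rose and NR3C2 fell by 0.55, while FOXO4 was not called (-0.15, adjusted p = 0.121).

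With CHIR-99021 the TSC22D3 level was lower in both lines, by calls that most fits without 1 library in CEM, and some in Nalm6, did not keep. In Nalm6 the untreated libraries held 19.6, 23.4 and 21.9 CPM and the treated ones 17.5, 18.6 and 14.9 CPM, without overlap. Replicate 3 of the treated group, the lowest library, stood apart from the other two over all genes, with a chi-square per degree of freedom of 37.5 and 39.0 against 5.26 between those. The log2 fold change was -0.35 ± 0.09 (edgeR adjusted p = 0.0419), where 7.88% of 18082 genes and 1 of the 4 members were called. The call was lost without replicate 2 of the untreated group (-0.29, adjusted p = 0.190), without its replicate 3 (-0.34, adjusted p = 0.159) and without replicate 1 of the treated group (-0.36, adjusted p = 0.0948), and kept without treated replicate 3 (-0.25, adjusted p = 0.0229). In CEM the level went from 1.97, 2.33 and 2.13 CPM to 1.43, 1.22 and 1.72 CPM, again without overlap. The change was -0.55 ± 0.15 on the log2 scale (edgeR adjusted p = 0.0386), where 10.8% of 17200 genes and 2 of the 4 members were called. It lost its call in 5 of the 6 fits without 1 library, at adjusted p from 0.0595 to 0.149, under DESeq2 (adjusted p = 0.0668) and with the replicate number as a block (-0.55, adjusted p = 0.0582). Those fits were the ones without any 1 of the 3 untreated libraries or without replicate 1 or 2 of the treated group, with values from -0.61 to -0.44. The lines received different doses, and their CHIR-99021 responses did not differ by the interaction test (-0.20, 95% interval -0.59 to 0.20, adjusted p = 0.810), where edgeR called 1.17% of genes and 0 of the 4 members; at an unadjusted p under 0.05 the count was 0, and DESeq2 called 0.

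Of the 5 factors on the TSC22D3 gene, 4 were lower in Nalm6 with CHIR-99021: FOXO1 (-0.38), FOXO3 (-0.27), FOXO4 (-0.40) and NR3C1 (-0.22), all with edgeR adjusted p under the threshold. The list's median was -0.27, against -0.01 over all genes, of which 7.88% were called. Fits without 1 library, where 409 to 2708 genes were called, were not read for these factors. In CEM 1 of the 4 tested was lower, FOXO4 (-0.45, adjusted p = 5.27e-04), where 10.8% of all genes were called. Of the 7 receptor targets tested in each line, 1 was called with CHIR-99021 in Nalm6, DUSP1 (-0.23, lower), and 1 in CEM, SGK1 (0.35, higher).

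TSC22D3 was lower in the knockout than in parental Nalm6 in every condition both lines shared. Untreated knockout libraries (7.26, 7.03 and 7.87 CPM) lay below both untreated Nalm6 groups. The log2 difference was -1.52 ± 0.09 from the main untreated group (edgeR adjusted p = 3.70e-06; 27.1% of genes and 2 of the 4 members called) and -0.77 ± 0.08 from that of the dexamethasone set (adjusted p = 1.41e-04; 36.6% of genes called). With prednisolone it was -1.11 ± 0.06 (adjusted p = 1.53e-08; 32.5% of genes and 2 of the 4 members called), and with dexamethasone -1.58 ± 0.04 (adjusted p = 1.11e-18; 56.6% of genes and all 4 members called). NR3C1 was also lower in the untreated knockout, by 0.62 on the log2 scale (154 ± 9.84 against 241 ± 1.58 CPM), and its part in the TSC22D3 level was not tested.

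The fold response of TSC22D3 in the knockout, relative to parental cells, changed direction with the untreated Nalm6 group. With the main untreated group, the log2 response to prednisolone was 0.41 ± 0.11 larger in the knockout (95% interval 0.17 to 0.64) but was not called (edgeR adjusted p = 0.0541). In that comparison 3.48% of genes and 0 of the 4 members were called; at an unadjusted p under 0.05 the count of members was 1, TSC22D3, and DESeq2 also called TSC22D3 (adjusted p = 0.0187). It was called with the replicate number as a block (0.41, adjusted p = 0.0364), with no filter on low counts (adjusted p = 0.00537), with at least 10 counts in every library (adjusted p = 0.0465) and in 1 fit on all Nalm6 and knockout libraries (adjusted p = 0.0186). It was called as well without replicate 1 of the untreated Nalm6 group (0.47, adjusted p = 0.0351), without replicate 3 of the untreated knockout (0.46, adjusted p = 0.0197) and without replicate 3 of the Nalm6 prednisolone group (0.48, adjusted p = 0.0195). With the untreated group of the dexamethasone set in its place, the response was smaller in the knockout by 0.32 on the log2 scale (-0.32, 95% interval -0.53 to -0.11, adjusted p = 0.0272), in a fit where 24.6% of genes were called. The direction of the fold response thus depended on the untreated Nalm6 group, which the comparison of treated levels does not use.

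The same comparison was made for the 8 receptor targets. Their response to prednisolone was called as different in the knockout for 5 of 8, smaller in each (median -0.44 against 0.00 over all genes), with SGK1 (-1.87) and TXNIP (-0.99) furthest apart. Of all genes tested 3.48% were called, and 2.38% were called lower. With the other untreated group 3 of 8 were smaller and 1 larger (median -0.65 against 0.01), where 24.6% of all genes were called. With dexamethasone, 7 of 8 stood lower in the knockout than in parental cells and 1 higher (median -1.16 against -0.00). Of all genes 28.1% were called lower and 28.5% higher in that comparison.

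**Figure D5:**
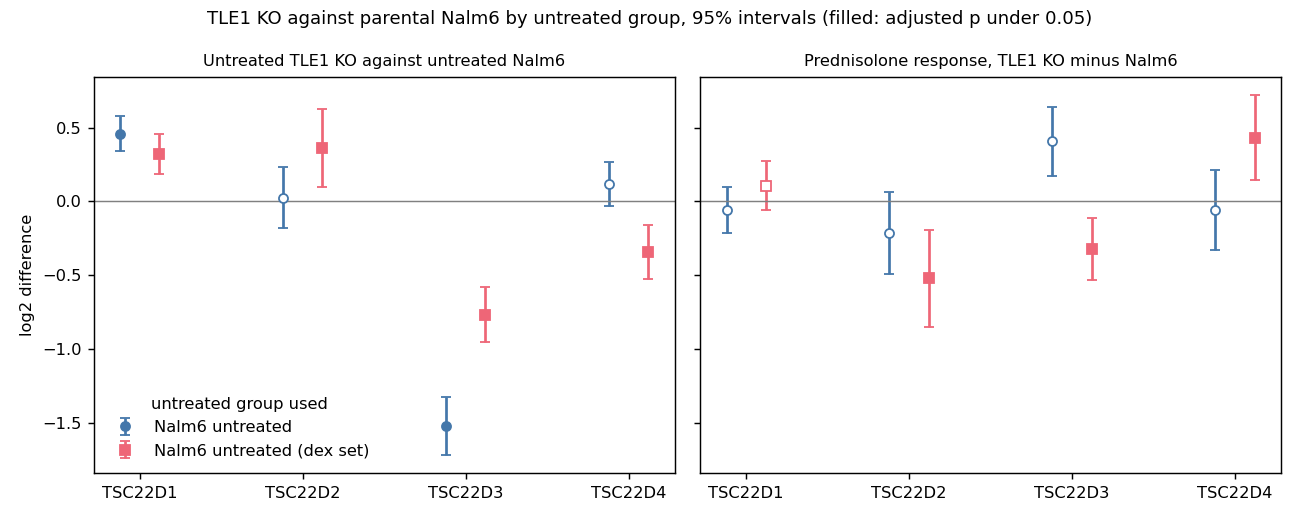
Log2 difference (y axis) between knockout and parental Nalm6 for each member, untreated (left) and in the prednisolone response (right), with 95% intervals for each of the 2 untreated Nalm6 groups. TSC22D3 is at -1.52 and -0.77 on the left, and at 0.41 and -0.32 on the right.

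TSC22D1, TSC22D3 and TSC22D4 were lower in untreated CEM than in untreated Nalm6. TSC22D3 was 2.14 ± 0.177 CPM in untreated CEM, against 12.3 ± 0.167 and 21.6 ± 1.93 CPM in the 2 untreated Nalm6 groups (SD, n = 3). Against the dexamethasone set's untreated group the log2 difference was -2.56 for TSC22D3, -0.81 for TSC22D1 and -0.80 for TSC22D4, and 0.32 for TSC22D2 (edgeR adjusted p from 2.01e-11 to 0.00764). In that comparison 77.5% of 18018 genes and all 4 members were called. TSC22D2 was not called against the other untreated Nalm6 group (0.02, adjusted p = 0.765), and stood at 0.21 without replicate 1 of the dexamethasone set's untreated group.

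TSC22D1 rose with both glucocorticoids in Nalm6 and with prednisolone in the knockout. In untreated Nalm6 it was 39.7, 41.5 and 40.0 CPM and with prednisolone 53.4, 55.7 and 50.3 CPM. Every treated library exceeded every untreated one. The log2 fold change was 0.37 ± 0.04 (edgeR adjusted p = 1.16e-06), as it was with dexamethasone (0.37 ± 0.04, adjusted p = 2.91e-06). Each against the other untreated group, these were 0.19 and 0.54. In the knockout, prednisolone took TSC22D1 from 54.8, 57.1 and 51.6 CPM to 67.0, 72.3 and 65.3 CPM (0.28 ± 0.06, adjusted p = 0.00486). With dexamethasone the knockout value was 0.23 (adjusted p = 0.00630) against untreated knockout cells, but 0.08 and not called with the set difference removed (adjusted p = 0.369). In CEM it was 24.4, 26.1 and 24.9 CPM untreated and 27.2, 27.3 and 27.0 CPM with prednisolone, and the log2 fold change of 0.08 missed the threshold (95% interval -0.02 to 0.18, adjusted p = 0.168). The CEM response was smaller than that of Nalm6 by the interaction test (-0.27 ± 0.06, adjusted p = 0.00144), but not with the other untreated Nalm6 group (-0.11, adjusted p = 0.210). CHIR-99021 gave 0.10 in both lines, neither called. In Nalm6 it was called without replicate 3 of the treated group (0.16, adjusted p = 0.0157).

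TSC22D1 went the opposite way to TSC22D3 in the knockout. It was higher there untreated (0.46 ± 0.05, edgeR adjusted p = 2.51e-04), with prednisolone (0.40 ± 0.05, adjusted p = 6.37e-05) and with dexamethasone (0.17 ± 0.04, adjusted p = 5.33e-04). Against the other untreated Nalm6 group the first of these was 0.32 (adjusted p = 0.00309). TSC22D1-AS1, an antisense RNA gene at the locus, ran from 0.318 ± 0.0376 CPM in CEM with CHIR-99021 to 1.92 ± 0.0732 CPM in the knockout with prednisolone. TSC22D1 itself stood at 26.6 and 68.2 CPM in those 2 groups. The counts used are of 1 strand, whose gene total was 12.3 to 15.3 times that of the other strand. Whether TSC22D1 reads given to the wrong strand add to the TSC22D1-AS1 counts was not tested. TSC22D1-AS1 rose with prednisolone (0.64 ± 0.17, adjusted p = 0.00355) and dexamethasone (0.70 ± 0.19, adjusted p = 0.00666) in Nalm6.

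Of 9 TGF-beta signalling genes, 4 rose and 2 fell with prednisolone in Nalm6 (median 0.28 against 0.03 over all genes), and 6 rose and 2 fell with dexamethasone (median 0.23 against 0.02). Over all genes 54.8% and 60.5% were called. With the untreated groups exchanged the counts were 7 and 1 with prednisolone (median 0.39) and 5 and 3 with dexamethasone (median 0.12). Of all genes 64.3% and 72.8% were then called. SMAD7, an inhibitor of the pathway, rose by 1.13, 0.92 and 1.00 with prednisolone in Nalm6, the knockout and CEM, and TGFBR3, a co-receptor, by 1.82, 0.52 and 0.57. TGFB1, the ligand, fell in those 3 comparisons (-0.36, -0.89 and -0.24). The TGFBR3 response was smaller in the knockout than in parental cells (-1.27, adjusted p = 4.84e-07).

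TSC22D2 was the steadiest member, from 25.0 ± 3.77 to 39.0 ± 0.0424 CPM (SD, n = 3) over the 11 groups. In Nalm6 it was 29.7, 34.1 and 34.1 CPM untreated and 39.0 CPM in each prednisolone library. The log2 fold change was 0.23 ± 0.05 (edgeR adjusted p = 0.00107), though it was not called when all Nalm6 and knockout libraries shared 1 fit (0.20, adjusted p = 0.0806). It was 0.53 against the other untreated group. Dexamethasone took it from 20.9, 25.9 and 28.3 CPM to 35.8, 34.4 and 37.0 CPM (0.49 ± 0.08, adjusted p = 1.07e-04), and this was 0.18 against the other untreated group (adjusted p = 0.00328). In the knockout its prednisolone change was -0.00 (95% interval -0.26 to 0.25) and in CEM 0.05 (95% interval -0.06 to 0.17), neither called. The CEM value was called without replicate 2 of the untreated group (0.12, adjusted p = 0.0426). With dexamethasone TSC22D2 was lower in the knockout than in parental cells (-0.19 ± 0.04, adjusted p = 7.91e-04), but not in the fit on all Nalm6 and knockout libraries (-0.20, adjusted p = 0.120). CHIR-99021 gave -0.09 in Nalm6 and -0.16 in CEM, neither called, and in CEM it was called without replicate 1 of the treated group (-0.25, adjusted p = 0.0440).

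TSC22D4 moved in opposite directions with the 2 glucocorticoids in Nalm6. With prednisolone it was 94.4, 87.9 and 102 CPM against 102, 106 and 113 CPM untreated. The ranges overlapped, and the log2 fold change was -0.20 ± 0.06 (edgeR adjusted p = 0.00531). It was -0.13 without replicate 2 of the prednisolone group and -0.70 against the other untreated group. With dexamethasone it was 176, 177 and 181 CPM against 128, 144 and 156 CPM, without overlap. That rise was 0.29 ± 0.05 (adjusted p = 3.81e-04), and 0.78 against the other untreated group. The opposite signs held with either untreated group, but exchanging the groups could not have changed a sign. TSC22D4 was 0.47 higher on the log2 scale in the untreated group of the dexamethasone set, so the exchange widened both changes. Drug, dose and sample set cannot be told apart, and the difference between the drugs was not tested.

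In the knockout TSC22D4 was 80.2, 104 and 106 CPM with prednisolone and 116, 122 and 105 CPM untreated. The change was -0.29 ± 0.10 on the log2 scale (edgeR adjusted p = 0.0391) with overlapping ranges, and replicate 1 of the treated group was the lowest library. Without it the value was -0.18 (adjusted p = 0.103), and the call was also lost without treated replicate 2 (-0.33, adjusted p = 0.0526) and untreated replicates 1 (-0.29, adjusted p = 0.0620) and 2 (-0.24, adjusted p = 0.135). With dexamethasone TSC22D4 stood at 121, 114 and 117 CPM in the knockout, below all 3 parental libraries with dexamethasone (-0.59 ± 0.03, adjusted p = 2.08e-12). Against untreated knockout cells that level was a change of 0.05 (adjusted p = 0.508), and of -0.42 once the difference between the untreated Nalm6 groups was subtracted (adjusted p = 0.00225). Untreated, the knockout differed by 0.12 from the main Nalm6 group (adjusted p = 0.214) and by -0.34 from the other (adjusted p = 0.00990), so that difference changed sign with the control. Without replicate 3 of the untreated knockout the first was called (0.17, adjusted p = 0.0265).

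In CEM TSC22D4 was 81.5, 89.2 and 80.8 CPM untreated and 88.5, 85.0 and 84.9 CPM with prednisolone, and the log2 fold change of 0.01 (95% interval -0.08 to 0.09) missed the threshold. CHIR-99021 lowered it to 69.5, 68.1 and 76.5 CPM (-0.21 ± 0.05, edgeR adjusted p = 0.0253), below every untreated library. That call was lost without untreated replicate 2 (-0.16, adjusted p = 0.106) and without treated replicates 1 (-0.20, adjusted p = 0.0575) and 2 (-0.18, adjusted p = 0.123). In Nalm6, 97.2, 99.3 and 95.6 CPM with CHIR-99021 lay below 102, 106 and 113 CPM, but -0.14 was not called (95% interval -0.24 to -0.03, adjusted p = 0.104).

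Of 11 genes for partners of the long TSC22 proteins and the WNK pathway, 9 were tested with prednisolone in Nalm6, where 4 rose and 2 fell (median 0.14 against 0.03 over all genes, of which 54.8% were called). With the other untreated group edgeR called 4 of 8 tested, each higher (64.3% of all genes called), and NRBP1 (0.11) and OXSR1 (-0.09) lost their calls in Nalm6. NRBP1, the pseudokinase partner, rose by 0.26 in Nalm6, 0.37 in the knockout and 0.17 in CEM. NRBP2, its paralogue, rose by 0.60 in Nalm6 (0.39 against the other untreated group) and 1.48 in CEM. In the knockout NRBP2 went from 4.09 ± 0.635 to 5.49 ± 0.857 CPM with prednisolone (SD, n = 3), with overlapping ranges. OXSR1, a kinase that WNKs activate, fell by 0.19, 0.31 and 0.28 in Nalm6, the knockout and CEM. WNK1 was called higher with dexamethasone in Nalm6 (0.30) and not with prednisolone (0.03, adjusted p = 0.521), but with the untreated groups exchanged it was called higher with both (0.12 and 0.20). WNK2 and WNK3 were below the filter in these comparisons.

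Of 10 genes for proteins reported to bind GILZ, 5 rose and 2 fell with prednisolone in Nalm6 (median 0.11 against 0.03 over all genes, of which 54.8% were called), and 5 rose and 3 fell against the other untreated group (median 0.16, with 64.3% of all genes called). FOS and JUN, the AP-1 subunits, rose by 2.49 and 1.27 in Nalm6 against the main untreated group and by 1.15 and 1.36 in CEM. Against the other untreated Nalm6 group the rises were 2.95 and 1.70. FOS was low in untreated cells, at 1.18 CPM in the main Nalm6 group and 1.23 CPM in CEM. In the knockout FOS rose by 1.25 and JUN was not called (-0.08, adjusted p = 0.659), and both responses were smaller than in parental cells (-1.22, adjusted p = 0.00624, and -1.32, adjusted p = 8.18e-05). RELA, an NF-kB subunit, was not called with prednisolone in Nalm6, the knockout or CEM (-0.00, -0.19 and 0.00), but was lower in Nalm6 against the other untreated group (-0.22, adjusted p = 0.00312).

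Over the 11 group means of log2(CPM + 1), the genes most like TSC22D3 among 11198 were GLUL (Pearson r = 0.98), glutamine synthetase, BTG1 (0.98), an antiproliferative gene, APLF (0.97), a DNA repair gene, BMF (0.97), a pro-apoptotic BCL2 relative, and ARID5A (0.96). Most like TSC22D1 were NIPAL2, HIP1 and PRDM11 (all 0.99), most like TSC22D2 were ZZEF1 (0.94), ZBTB34 and MCM3AP (0.93 each), and most like TSC22D4 were PPP1R16A, GRINA and CERCAM (0.94 each). Between members r ran from 0.00 (TSC22D2 and TSC22D4) to 0.65 (TSC22D2 and TSC22D3). These values describe 11 points that share libraries and cell lines, and the genes were picked from many.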

How the data were processed

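RNA from 33 libraries was measured by RNA-seq. The authors deposited raw counts per gene for each library, in the layout that STAR writes, with 62446 gene rows, 4 rows for reads given to no gene, and 3 count columns: unstranded, and 1 for each strand. The submitters' processing notes name Bowtie2, DESeq2 and the build hg19; versions, annotation and read filters are not given in the sources used here. Column 4 was used, since it held 12.3 to 15.3 times the gene total of column 3. The 4 rows that name no gene were left out; they held 2.84% to 11.2% (unmapped), 18.4% to 32.7% (no feature), 4.83% to 7.55% (multimapping) and 4.70% to 7.45% (ambiguous). Column 4 gene totals of 25292579 to 61930057 set the precision.

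From these counts CPM were computed on each library's gene total. For each comparison, only the groups it names entered the fit by edgeR 4.0.16 (R 4.3.3): filterByExpr, TMM and the quasi-likelihood F test on all genes, with Benjamini-Hochberg adjustment and a threshold of 0.05. Standard errors come from the F statistic. The tests were checked on simulated counts. Levels per kilobase use the union of GENCODE v29 exons, matched by gene ID, and promoter windows come from RefSeq. Named genes are the 4 members, TSC22D1-AS1, TLE1, the members of 5 gene lists, and the genes with the highest Pearson r to each member (5 for TSC22D3, 3 for the others) among genes with a mean log2 CPM of at least 1. The members, lists and tests were chosen with earlier results of these data known. Replicates of a group differed by more than sampling noise (chi-square per degree of freedom 1.77 to 39.0 over 33 pairs), and none were merged. The series text speaks of independent experiments for some groups only; elsewhere p-values measure the spread between libraries, which may be technical. Alternatives were RLE size factors, DESeq2 1.42.0, no filter on low counts, at least 10 counts in every library, a block for the replicate number, unstranded counts, 1 fit on all libraries of the line, and each library left out in turn. The other untreated Nalm6 group, the comparison of knockout and parental cells under prednisolone and the longest-transcript length were added after the data were seen. In that added comparison of knockout and parental cells same-numbered libraries deviated together in all 3 pairs (lowest correlation 0.109). The values printed for it still come from the fit without a block. With the replicate number as a block, no call of a member changed there. No label gives the source of the pairing.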

Additional observations from a re-analysis of the deposited data

Results flagged for a closer look

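The prednisolone response differed between CEM and Nalm6 for 3 of the 4 members, by the test of the difference itself (edgeR interaction term, 3 libraries in each of 4 groups), as it did for 26.9% of all genes. TSC22D3 rose more in CEM, by 1.98 on the log2 scale (adjusted p = 6.04e-12), and by 1.25 with the other untreated Nalm6 group. TSC22D1 rose less in CEM (-0.27, adjusted p = 0.00144), which was not called with the other untreated group (-0.11, adjusted p = 0.210), and TSC22D4 differed by 0.22 (adjusted p = 0.0402). The TSC22D4 call was lost in 8 of the 12 fits without 1 library, those without untreated replicate 2 or 3 or treated replicate 1 or 2 of Nalm6 and those without untreated replicate 1 or 3 or treated replicate 1 or 2 of CEM, with values of 0.15 to 0.23; with the other untreated Nalm6 group it was 0.71. The doses were 10 µM in CEM and 5 µM in Nalm6, and the untreated CEM level of TSC22D3, 2.14 CPM, was lower than the 21.6 CPM of Nalm6. The part of dose and of the starting level in these differences was not tested.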

How the results depend on the processing

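Of 472 values of members under the alternatives, 449 kept their side of the threshold, 11 newly passed it, 9 lost it and 3 took the opposite sign as called values. With 1 library left out, 446 of 480 kept their side, 24 lost the call and 10 gained it. Among those that kept their side, 7 and 22 changed sign, all of them uncalled values. Causes were not tested.

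The untreated Nalm6 group mattered most, and was exchanged after the data were seen. For the knockout against parental cells, untreated, TSC22D4 reversed to -0.34 and TSC22D2 became called at 0.36. For the knockout minus parental prednisolone response, TSC22D3 reversed to -0.32 and TSC22D4 to 0.43, and TSC22D2 became called at -0.52. For the CEM minus Nalm6 prednisolone response, TSC22D1 lost its call at -0.11 and TSC22D2 gained one at -0.48. Against Nalm6_Ctrl, untreated CEM had TSC22D2 at 0.021, not called.

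The TSC22D3 knockout minus parental response, not called at 0.41, was called under DESeq2 (0.41), with no filter (0.41), with at least 10 counts in every library (0.41), with the replicate number as a block (0.41) and with all libraries of the line in 1 fit (0.42). With no filter, calls were gained by TSC22D4 with CHIR-99021 in Nalm6 (-0.14), TSC22D2 with dexamethasone in the knockout with the set difference removed (0.27) and TSC22D2 in the knockout against parental cells with prednisolone (-0.17). At least 10 counts in every library ended the TSC22D4 call with prednisolone in the knockout (-0.27). The fit on all libraries of the line ended those of TSC22D2 with prednisolone in Nalm6 (0.20), TSC22D2 in the knockout against parental cells with dexamethasone (-0.20) and TSC22D4 in the CEM minus Nalm6 prednisolone response (0.21), the last also lost on unstranded counts (0.22). TSC22D3 with CHIR-99021 in CEM lost its call under DESeq2 (-0.54) and with the replicate block (-0.55).

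Over the fits without 1 library, the values that changed a call ran as follows. With CHIR-99021 in Nalm6, TSC22D1 ran from 0.052 to 0.16 and TSC22D3 from -0.43 to -0.25. With CHIR-99021 in CEM, TSC22D2 ran from -0.25 to -0.085, TSC22D3 from -0.67 to -0.44 and TSC22D4 from -0.27 to -0.16. With prednisolone, TSC22D4 in the knockout ran from -0.35 to -0.18, and TSC22D2 in CEM from -0.0020 to 0.12. For the knockout against parental cells, TSC22D4 ran from 0.069 to 0.17 untreated and from -0.0049 to 0.17 with prednisolone. TSC22D2 with dexamethasone in the knockout ran from -0.15 to 0.0090, and from 0.15 to 0.38 with the set difference removed. TSC22D1 between the untreated Nalm6 groups ran from 0.13 to 0.17. For the differences between responses, TSC22D3 ran from 0.35 to 0.48 (knockout minus parental) and TSC22D4 from 0.15 to 0.30 (CEM minus Nalm6).

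In 1 of the 12 comparisons checked every pair of same-numbered libraries correlated above 0.1 (knockout against parental cells with prednisolone); over all 36 pairs the correlations of deviations ran from -0.371 to 0.337, and 14 pairs were highest with their own number. For prednisolone in Nalm6 (0.0844 to 0.173) and between the untreated Nalm6 groups (0.0759 to 0.337) each library was also highest with its own number, though not every pair passed 0.1. No label gives a pairing. The replicate block changed the 2 calls of members named above and no other. Counts of all genes called moved by more than 1.5 times for CHIR-99021 in Nalm6 (1425; 2320 with no filter, 925 with the block, 409 to 2708 without 1 library), CHIR-99021 in CEM (1865; down to 1001 without 1 library), the knockout against parental cells, untreated (4655; down to 2804), the knockout minus parental prednisolone response (624; 981 with no filter, 1060 with all libraries of the line, 4345 with the other untreated group, 361 to 1852 without 1 library) and the CEM minus Nalm6 CHIR-99021 response (235; 413 under DESeq2, 473 with no filter, 149 to 388 without 1 library).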
